A study of Mus musculus with 9 samples.

Results

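Carbonic anhydrases are zinc enzymes that speed the exchange of carbon dioxide and water with bicarbonate and protons. In muscle they help carry carbon dioxide from fibres to capillary blood and buffer the acid that contraction makes, with family members in the cytosol, in mitochondria and on the cell surface. Car3 is the abundant cytosolic form of muscle fibres and adipocytes and has low catalytic activity, while Car8 and Car11 lack catalytic activity and are called carbonic anhydrase-related proteins. The 10 genes described here are Car2, Car3, Car4, Car5b, Car8, Car9, Car11, Car12, Car13 and Car14. Of these, 9 had a probe set that names no other gene, among 22180 genes measured in that way. Car14, a transmembrane form, shares its probe set with Aph1a and has no value of its own. The family was selected on the low log2 values of Car3 in the arrays of head muscles in these same data, so every difference from head muscles below is a description and carries no test.

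The arrays came from 9 skeletal muscles of male C57BL/6J mice, an inbred strain, aged 12 weeks, with no treatment or genetic change named in the labels. Masseter and digastric stood for the head (n = 2). Trapezius, supraspinatus and triceps stood for the shoulder and forelimb (n = 3). The hindlimb was represented by gastrocnemius, soleus, tibialis anterior and rectus femoris (n = 4). The labels give the muscle alone, and its region was taken from textbook anatomy. The series title concerns positional memory in adult muscle, which is the question a comparison of regions addresses. Each muscle had 1 array, so differences between muscles, animals and arrays cannot be told apart, and each SD is a spread between different muscles of a region.

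Levels are deposited log2 expression values, on which a difference of 1 is a doubling. They can be compared between arrays for 1 gene, and not between genes, because each probe set has its own sensitivity. All 6 markers of skeletal muscle fibres were measured, with a mean of 11.84 to 12.23 on every array. The median of all probe sets was 3.34 to 3.44 per array, and values near it cannot be told from background. The triceps, rectus femoris and gastrocnemius arrays had a narrower spread of values over probe sets (SD 1.92 to 1.96) than the 6 others (SD 2.03 to 2.08), and none of these 3 is a head muscle.

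Car3 varied most among the 9 genes. Its log2 level was 7.03 in masseter and 7.78 in digastric. It was at 11.30 in trapezius, 8.62 in supraspinatus and 10.69 in triceps, and at 10.16 in rectus femoris, 11.33 in tibialis anterior, 11.34 in soleus and 11.27 in gastrocnemius. Both head arrays were the lowest of the 9, which is what the choice of the family used, and supraspinatus was the lowest of the 7 others. The range over the 9 arrays was 4.32, which includes the head values behind the choice. Over the 7 other arrays it was 2.72, from supraspinatus to soleus, against 1.78 for Car5b and 1.76 for Car2, the next of the 9 genes.

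**Figure D1:**
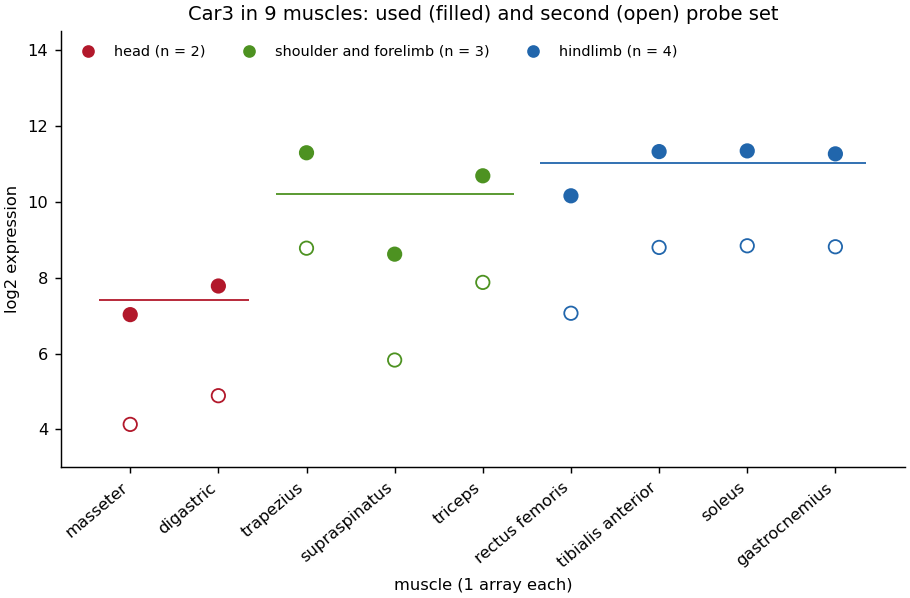
Log2 expression of Car3 (y axis) in the 9 muscles (x axis, 1 array each), with filled points for the probe set used, open points for the second probe set and lines for the mean of each region. Masseter at 7.03 and digastric at 7.78 lie below the other 7 arrays, from 8.62 to 11.34, and the open points follow the filled ones at a lower level.

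The order of the muscles by Car3 had a plateau at its top. Soleus, tibialis anterior, trapezius and gastrocnemius lay within 0.08 of each other. Triceps followed 0.58 lower and rectus femoris a further 0.53 lower, both steps smaller than the within-region SD of Car3, 0.93. The step from rectus femoris down to supraspinatus was 1.54 and was the only one of the 8 steps above that SD. Supraspinatus, digastric and masseter followed each other at steps of 0.84 and 0.75. The spread of repeated arrays of 1 muscle was not measured. The within-region SD is itself a spread between different muscles, so a step below it is not shown to lie within array noise. For each gene it also includes the values whose steps are set against it. For Car3 the low supraspinatus value widens it, with an SD of 1.40 in shoulder and forelimb, 0.53 in head and 0.58 in hindlimb muscles.

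The second probe set of Car3 gave the same picture at a lower level. It was at 4.13 in masseter and 4.89 in digastric, at 8.78, 5.83 and 7.88 in trapezius, supraspinatus and triceps, and at 7.06, 8.80, 8.84 and 8.82 in rectus femoris, tibialis anterior, soleus and gastrocnemius. It lay 2.45 to 3.10 below the first on each array (Pearson's r = 0.996, Spearman's rho = 0.95 over 9 arrays, which hold the same RNA). Supraspinatus was again the lowest muscle outside the head, and rectus femoris again the lowest of the hindlimb.

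As region means, Car3 was at 7.40 ± 0.53 (SD, n = 2) in head muscles, 10.20 ± 1.40 (SD, n = 3) in shoulder and forelimb muscles and 11.02 ± 0.58 (SD, n = 4) in hindlimb muscles. The hindlimb difference from head was 3.62, a 12.3-fold difference, and the shoulder and forelimb difference 2.80, or 6.95-fold. Among the 6 arrays of wider spread these were 3.93 and 2.55. With trapezius counted among the head muscles, they were 2.32 and 0.95. In whole-muscle RNA, fewer cells that hold a transcript and less of it per cell cannot be told apart.

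Car3 is known as a gene of slow oxidative fibres and of fat cells, so its levels were set beside markers of both. The mean of 12 slow fibre markers, such as Myh7, the slow myosin heavy chain, was 9.52 in soleus, 6.73 in trapezius, 6.24 in gastrocnemius and 5.86 in triceps. It was 5.08 in tibialis anterior, 5.20 in supraspinatus, 4.85 in rectus femoris, 5.14 in digastric and 4.68 in masseter. Tibialis anterior, with a slow fibre mean close to that of supraspinatus and digastric, had 6.52-fold more Car3 than supraspinatus and 11.7-fold more than digastric. Single markers did not share this closeness in digastric. Myh7 was at 3.68 in digastric and 4.35 in tibialis anterior, and Myoz2 at 9.07 and 7.85. Soleus and tibialis anterior differed by 0.02 in Car3, while their slow fibre means were 9.52 and 5.08. Over the 9 arrays Pearson's r was 0.56 and Spearman's rho 0.67, and over the 7 arrays outside the head r was 0.47. The part of slow fibres in the Car3 values was not tested.

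The mean of 8 of 9 listed white adipocyte markers, such as Adipoq, which encodes adiponectin, was 7.65 in trapezius and between 5.06 and 6.00 in the 8 other arrays. It was 5.06 to 5.09 in head, 5.47 to 7.65 in shoulder and forelimb and 5.20 to 5.89 in hindlimb muscles, and 1 of the 8 markers lay below the median gene on every array. Car3 in trapezius differed by 0.03 from Car3 in tibialis anterior and in gastrocnemius, whose adipocyte means were 5.20 and 5.29. Supraspinatus had the second highest adipocyte mean and the lowest Car3 outside the head. Over the 7 arrays outside the head, r between Car3 and the adipocyte mean was -0.01 (rho = -0.36). Trapezius, at 7.65 against 5.20 to 6.00 in the rest of these arrays, weighs heavily in that r. The r near 0 thus hinges on 1 array and does not show that Car3 and the markers are unrelated. The part of fat cells in the Car3 values was not tested.

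**Figure D2:**
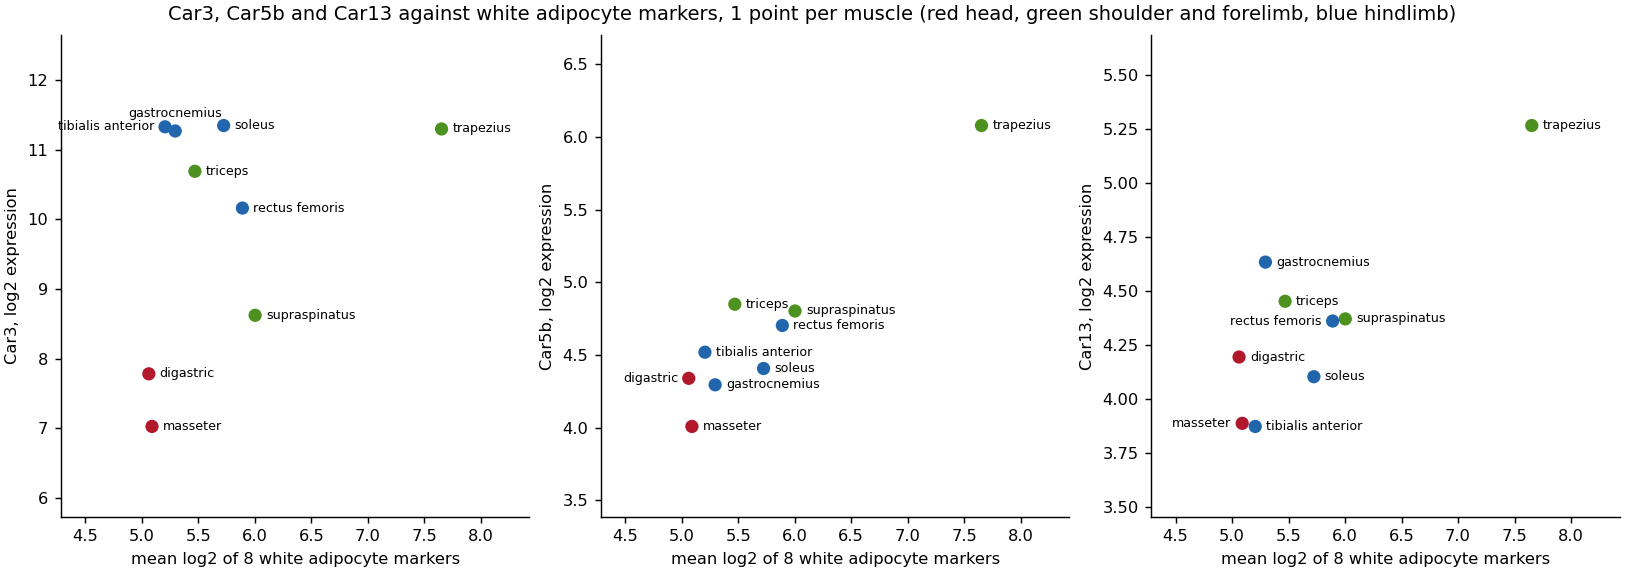
Log2 expression of Car3, Car5b and Car13 (y axes) against the mean log2 value of 8 white adipocyte markers (x axes), 1 point per muscle, coloured by region. Trapezius, at a marker mean of 7.65, stands far to the right and is the highest point for Car5b (6.08) and Car13 (5.26), while for Car3 it is level with 3 hindlimb muscles.

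The genes whose profile over the 9 arrays was most like that of Car3, among 5406 genes with a range of at least 1, were Usp35 (r = 0.91), Cd4 (0.89), Clec3a (0.88), Snai1 (0.85), Atoh1, Rtl5, Hdgfl1 and Nfatc2 (each 0.84). Their ranges were 1.04 to 1.39, far below that of Car3. Nfatc2, a calcium-regulated transcription factor, was at 4.94 in masseter and 5.0 in digastric and between 5.43 and 6.05 in the 7 other arrays. Of the 8, Usp35, Cd4, Clec3a, Atoh1, Rtl5 and Hdgfl1 lay below the median probe set on 1 or more arrays, with lowest values of 2.31 to 3.09 and highest values of 3.66 to 4.19, where background cannot be told from signal. Snai1, at 3.50 to 4.65, lay above that median on all 9. None of the 8 shared the scale of the Car3 profile.

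Car2, the fast cytosolic enzyme of red blood cells and many tissues, lies next to Car3 on chromosome 3 in the GRCm38.p6 gene order and had a different profile. It was at 5.46 in masseter and 6.37 in digastric. It was at 6.19, 5.30 and 5.37 in trapezius, supraspinatus and triceps, and at 4.44, 5.46, 5.91 and 5.05 in rectus femoris, tibialis anterior, soleus and gastrocnemius. Digastric, trapezius and soleus were highest and rectus femoris lowest, and all 3 regions overlapped. Over the 9 arrays r between Car2 and Car3 was -0.12 (rho = 0.11).

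The genes closest to Car2 in profile were Rnf125 (r = 0.98), Kyat3 (0.96), Acadl (0.96), Tmem106b (0.96) and Pank1 (0.95). Acadl encodes a dehydrogenase of fatty acid oxidation and Pank1 a kinase of coenzyme A synthesis. Acadl was at 10.01 in digastric, 9.85 in soleus, 9.82 in trapezius and 8.05 in rectus femoris, and all 5 genes were lowest in rectus femoris, an array of narrower spread. Car2 also went with the mean of 10 endothelial markers over the 9 arrays (r = 0.70, rho = 0.73). Of 8 listed erythroid markers 1 was measured, Epb42, at 2.41 to 3.34 on the 9 arrays and below the median gene on each. The part of blood in the Car2 values was not tested.

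Car13, another cytosolic enzyme of the same chromosome 3 cluster, was highest in trapezius at 5.26. It was at 4.37 in supraspinatus and 4.45 in triceps, and at 3.89 in masseter and 4.19 in digastric. In the hindlimb it was at 4.36 in rectus femoris, 3.87 in tibialis anterior, 4.10 in soleus and 4.63 in gastrocnemius. Trapezius exceeded the next muscle by 0.63, against a within-region SD of 0.38, and no other step exceeded that SD. In the gene order Car1 separates Car13 from Car3, and over the 9 arrays r between Car13 and Car3 was 0.41 (rho = 0.07).

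Car5b, a mitochondrial enzyme that supplies bicarbonate for biosynthesis, showed the same muscle at its top. It was at 6.08 in trapezius, 4.80 in supraspinatus and 4.85 in triceps. It was at 4.01 in masseter and 4.34 in digastric, and at 4.70, 4.52, 4.41 and 4.29 in rectus femoris, tibialis anterior, soleus and gastrocnemius. Trapezius was 1.23 above the next array, a 2.34-fold gap and the only step above the within-region SD of 0.45.

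Trapezius was also the array with the most adipocyte signal. Ucp1, the uncoupling protein of brown fat, was at 9.36 there, 5.10 in supraspinatus and at most 2.72 elsewhere. The mean of 4 of 5 listed brown adipocyte markers was 6.50 in trapezius, 3.97 in supraspinatus and 2.76 to 3.01 in the 7 others. Cidea was at 9.22 in trapezius, 5.69 in supraspinatus and 3.51 to 5.22 elsewhere. Elovl3 was raised in trapezius alone, at 4.28, with 2.12 in supraspinatus and 1.95 to 2.44 elsewhere. Zic1 was raised in neither, at 3.15 in trapezius, rectus femoris and gastrocnemius and 2.96 in supraspinatus. Over the 9 arrays the white adipocyte mean had an r of 0.94 with Car5b (rho = 0.77) and of 0.83 with Car13 (rho = 0.58). Without trapezius r was 0.69 for Car5b and 0.39 for Car13 over 8 arrays. The part of fat in either profile was not tested.

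The genes closest to Car5b in profile were Tmem45b (r = 0.98), Mrap (0.97), Pck1 (0.97), Pde3b (0.97) and Adipoq (0.96). Pck1 encodes an enzyme of glyceroneogenesis, Pde3b a phosphodiesterase of the insulin response in fat cells and Mrap an accessory protein of melanocortin receptors. Adipoq was at 6.67 in trapezius and 2.97 to 4.39 elsewhere. Those closest to Car13 were Hsd17b12 (r = 0.96), Psg27 (0.96), Mpzl2 (0.95), Acly (0.94) and Cebpa (0.93), of which Acly makes acetyl-CoA for lipid synthesis and Cebpa is a transcription factor of adipocyte differentiation. All 10 of these genes were highest in trapezius. Psg27, at 1.24 to 2.31, lay below the median probe set on all 9 arrays, and Tmem45b, Mrap, Pde3b and Adipoq did so on 2 to 4 arrays.

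Car4, which is tethered to the cell surface and known from muscle capillaries and sarcolemma, ran opposite to Car3 between the head and the rest. It was at 5.47 in masseter and 5.82 in digastric. It was at 4.86, 4.91 and 5.13 in trapezius, supraspinatus and triceps, and at 4.49, 4.91, 4.98 and 4.55 in rectus femoris, tibialis anterior, soleus and gastrocnemius. All 7 arrays lay below both head arrays, and the hindlimb mean was 1.88-fold and the shoulder and forelimb mean 1.59-fold lower than the head mean. Digastric, masseter and triceps followed each other at steps of 0.35 and 0.33, above the within-region SD of 0.22. The step of 0.32 from trapezius down to gastrocnemius was above it as well. Gastrocnemius and rectus femoris, the lowest for Car4, are arrays of narrower spread, as is triceps.

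The mean of 10 endothelial markers, such as Cdh5 of endothelial junctions, was 6.60 in masseter and 6.85 in digastric. It was 6.05 to 6.22 in shoulder and forelimb muscles, and 5.77, 6.40, 6.79 and 5.90 in rectus femoris, tibialis anterior, soleus and gastrocnemius. Car4 followed it over the 9 arrays (r = 0.79, rho = 0.86) and over the 7 outside the head (r = 0.61, rho = 0.77). Soleus, with an endothelial mean close to that of digastric, had Car4 0.83 lower. The part of endothelium in the Car4 values was not tested. The genes closest to Car4 were Resf1 (r = 0.97), Wbp4 (0.96), Herc6 (0.96), Gbp3 (0.95) and Phip (0.94). Herc6 and Gbp3 are interferon-induced, and all 5 were highest in digastric. Gbp3, at 2.35 to 3.48, lay below the median probe set on 8 arrays and Herc6 on 2.

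**Figure D3:**
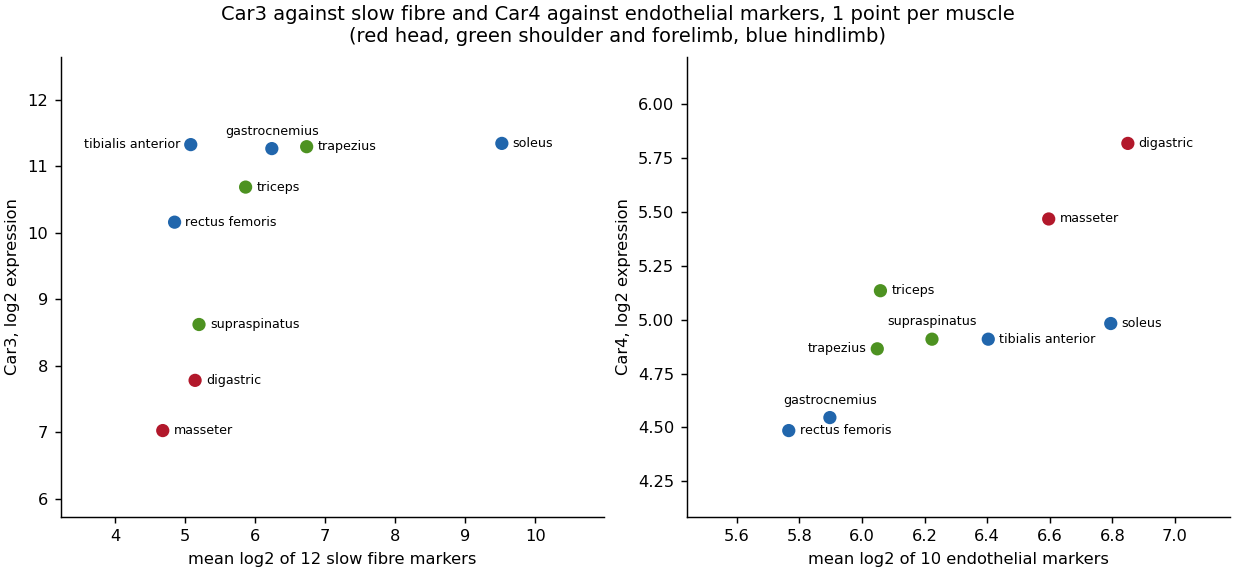
Log2 expression of Car3 against the mean of 12 slow fibre markers (left) and of Car4 against the mean of 10 endothelial markers (right), 1 point per muscle, coloured by region. Soleus stands far to the right on the left panel at a Car3 level shared with tibialis anterior, and on the right panel both head muscles are highest in Car4, with soleus lower at a like endothelial mean.

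Among the 10 genes, the other surface forms with values of their own were Car9, near the array medians, and Car12. Car9, a transmembrane enzyme induced by hypoxia, was at 3.80 in masseter and 3.79 in digastric, at 3.97, 3.76 and 3.71 in trapezius, supraspinatus and triceps, and at 3.95 in rectus femoris, 3.88 in tibialis anterior, 4.54 in soleus and 4.0 in gastrocnemius. Soleus stood 0.54 above the next array, with a within-region SD of 0.23. The second probe set of Car9 was at 2.73 in soleus, the second lowest of its 9 values, and the probe sets disagreed over the 9 arrays (r = -0.30, rho = -0.10). Car12, also transmembrane, lay between 2.18 in trapezius and 2.94 in rectus femoris, below the median probe set on all 9 arrays. The mean of 9 of 10 listed hypoxia target genes was 6.77 in soleus, 6.68 in masseter and 6.63 in digastric. It was 5.94 to 6.48 in the 6 others. Of these genes, Egln3 was highest in both head muscles, with 10.32 in masseter. Egln3 was at 8.65 in soleus and between 5.27 and 7.87 in the 6 others. Its difference of hindlimb from head was -2.69, against a median of -0.14 over the 9 genes. The mean without Egln3 was not computed.

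The related proteins without catalytic activity had ranges of 0.91 for Car8 and 0.93 for Car11 over the 9 arrays, against a median range of 0.81 over all genes. Car8, known as a regulator of calcium release from inositol trisphosphate receptors, was at 5.20 in masseter and 5.64 in digastric, at 4.79, 5.02 and 4.73 in trapezius, supraspinatus and triceps, and at 4.94 in rectus femoris, 5.01 in tibialis anterior, 5.49 in soleus and 5.01 in gastrocnemius. Digastric and soleus were the highest. Car11 was at 5.28 in masseter and 4.95 in digastric, at 5.36, 5.46 and 5.36 in trapezius, supraspinatus and triceps, and at 5.86 in rectus femoris, 5.89 in tibialis anterior, 4.97 in soleus and 5.69 in gastrocnemius. Soleus, the slow hindlimb muscle, was low in Car11 with digastric, while the 3 other hindlimb muscles were the highest of all.

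**Figure D4:**
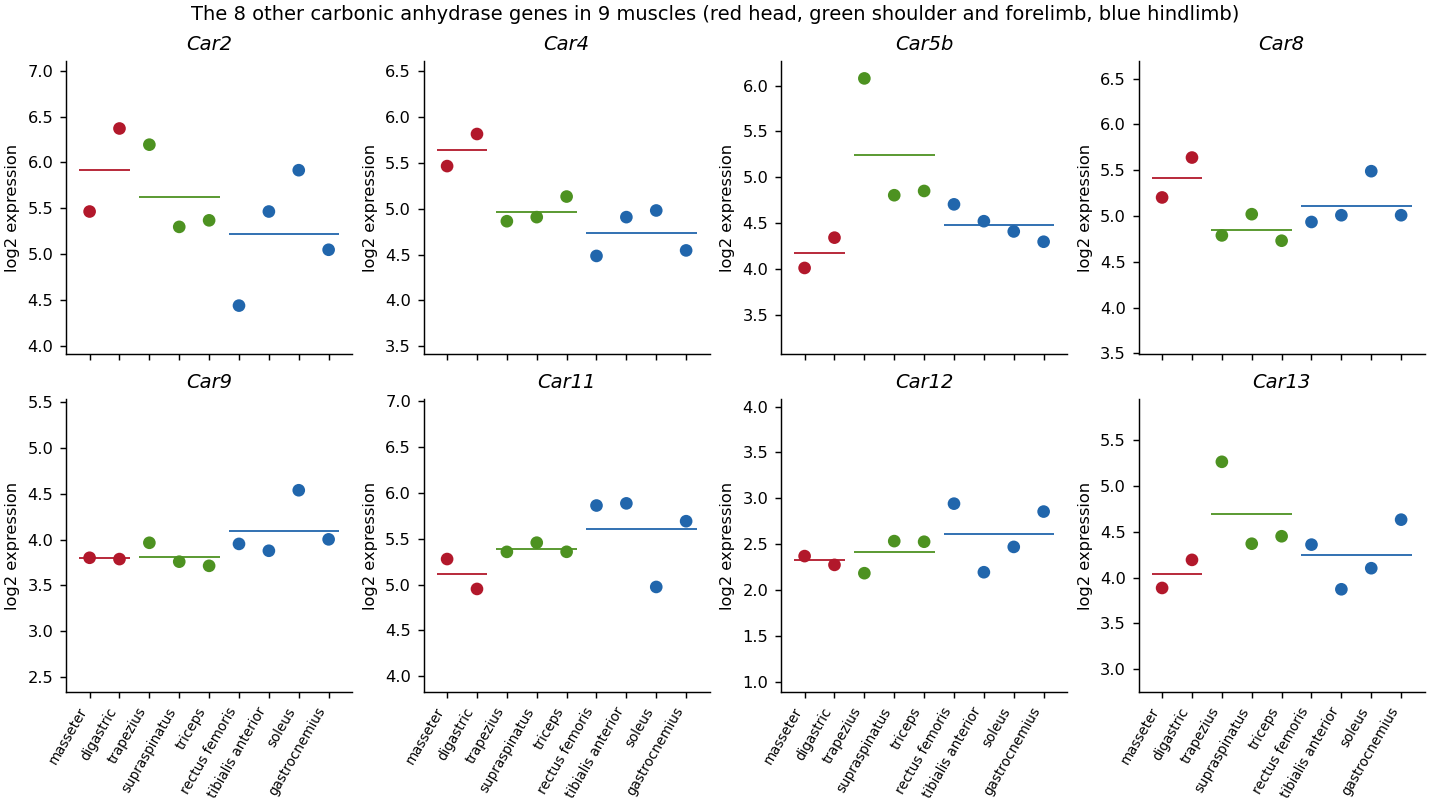
Log2 expression (y axes, each spanning the same number of log2 units) of the 8 other carbonic anhydrase genes in 9 muscles (x axes, 1 array each), with lines for the mean of each region. Car5b and Car13 peak in trapezius at 6.08 and 5.26, Car4 is highest in both head muscles, and Car12 lies below 3 in every muscle.

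Differences between hindlimb and shoulder and forelimb muscles did not use the head arrays and were tested with limma, with p-values adjusted over all 22180 genes. Of the 9 genes, 0 passed an adjusted p of 0.05, where 0.00451% of all genes passed, and 1, Car5b, had an unadjusted p under 0.05, where 3.65% of all genes did. The adjusted p of limma was 0.9998 for each of the 9. In 5 the difference was positive and in 4 negative, with a median of 0.20 against -0.01 over all genes.

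Car5b was 0.76 lower in hindlimb muscles (difference -0.76, SE 0.28, 95% interval -1.39 to -0.13), at 4.48 ± 0.17 (SD, n = 4) against 5.24 ± 0.72 (SD, n = 3). All 4 hindlimb arrays lay below all 3 shoulder and forelimb arrays. It was the 1 gene of the 9 whose groups did not overlap, against 4.62% of all genes in either direction and 2.3% in this one. Leaving out trapezius gave -0.34. The 6 arrays of wider spread alone gave -0.98, and the 3 of narrower spread -0.35.

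Car3 was 0.82 higher in hindlimb muscles (SE 0.55, 95% interval -0.40 to 2.05), and the groups overlapped. Among the 6 arrays of wider spread the difference was 1.38 and among the 3 of narrower spread 0.03. It was 1.37 without trapezius and 0.03 without supraspinatus.

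Car13 differed by -0.45 (95% interval -1.01 to 0.10), Car2 by -0.40 (-1.21 to 0.40) and Car4 by -0.24 (-0.63 to 0.15). Without trapezius the Car13 difference was -0.17 and the Car2 difference -0.12. Among the 6 arrays of wider spread and the 3 of narrower spread, in that order, it was -0.83 and 0.045 for Car13, -0.06 and -0.63 for Car2 and 0.06 and -0.62 for Car4. For Car11 it was 0.02 and 0.42, and for Car12 -0.03 and 0.37. Car9 differed by 0.28 (-0.11 to 0.67), Car8 by 0.26 (-0.14 to 0.67), Car11 by 0.21 (-0.28 to 0.70) and Car12 by 0.20 (-0.24 to 0.64). The second probe set of Car9 gave -0.10. Without soleus the difference was 0.13 for Car9 and 0.14 for Car8. Every interval but that of Car5b included 0, and none of these genes was shown to be alike in both regions.

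**Figure D5:**
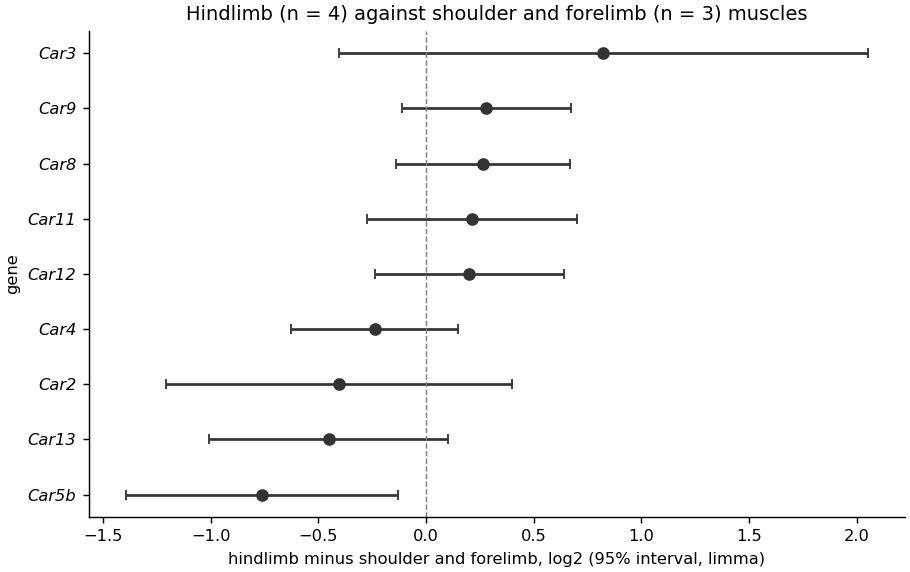
Difference in log2 expression between hindlimb (n = 4) and shoulder and forelimb (n = 3) muscles for the 9 genes, with 95% intervals from limma (x axis, positive where hindlimb is higher). The intervals cross 0 for all but Car5b, at -0.76, and that of Car3 is the widest, from -0.40 to 2.05.

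Against head muscles, where the family was picked, the values stand as a description. Car3 and Car9 were higher in every hindlimb array than in both head arrays and Car4 lower, 3 of the 9 genes against 21.2% of all genes. The Car9 probe set behind this count lay at 3.71 to 4.54, near the array medians. On its second probe set the groups overlapped, with 3.03 and 2.59 in the head against 2.89 in tibialis anterior and 2.73 in soleus. For shoulder and forelimb muscles, Car3, Car5b, Car11 and Car13 lay above both head arrays and Car4 and Car8 below, 6 of 9 against 29.9% of all genes. Over all 7 arrays outside the head, Car3 alone lay above both head arrays, which 6% of all genes did, and Car4 alone below, which 6.28% did. Both comparisons share the head arrays. The limma test called 0.00902% of all genes for hindlimb muscles and 0% for shoulder and forelimb muscles against the head.

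Car4 differed from head muscles by -0.91 in hindlimb and -0.67 in shoulder and forelimb muscles, Car2 by -0.70 and -0.30, and Car8 by -0.31 and -0.57. The higher ones were Car11 at 0.49 and 0.28, Car5b at 0.31 and 1.07, Car9 at 0.30 and 0.02, Car12 at 0.29 and 0.09 and Car13 at 0.20 and 0.65, in the same order. Single arrays moved several of these values. Without digastric, Car2 differed from head by -0.25 in hindlimb and by 0.16 in shoulder and forelimb muscles, which turns the direction of the latter. Car8 then differed by -0.09 and -0.36, and Car11 by 0.33 and 0.11. Without masseter the hindlimb difference was 0.14 for Car5b and 0.05 for Car13. Without trapezius the shoulder and forelimb difference was 0.65 for Car5b, 0.37 for Car13 and -0.06 for Car9. Among the 6 arrays of wider spread the hindlimb difference of Car13 was -0.05.

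Of 8 other family genes listed, 7 were measured, and 4 of the 7 (Car1, Car6, Car10 and Ptprz1) lay below the median gene on every array. Car1, the red cell form between Car13 and Car3 on the chromosome, was at 1.59 to 2.19. Car6, the form secreted in saliva, was at 2.44 in masseter and 2.62 in digastric and 1.93 to 3.30 elsewhere. The mean of 9 salivary gland markers was highest in masseter at 4.31, where Klk1 was at 7.28 against 0.91 to 1.93 elsewhere. Without Klk1 the mean of the 8 others was 3.94 in masseter, 3.84 in digastric and 3.86 in rectus femoris. Among these 8, Bpifa2 was at 5.16 in digastric and 3.74 in masseter, and 2.24 to 2.99 elsewhere. Of all 9 salivary markers, 3 had a higher mean in hindlimb than in head muscles. Car7, a cytosolic form, lay between 4.87 and 5.40 and Car15, a membrane-anchored form, between 3.84 and 4.59. Ptprg, a receptor tyrosine phosphatase with a carbonic anhydrase-like outer domain, was at 5.92 in masseter and 6.26 in digastric, at 5.64, 5.71 and 5.11 in trapezius, supraspinatus and triceps, and at 5.41 in rectus femoris, 5.90 in tibialis anterior, 6.63 in soleus and 5.32 in gastrocnemius. Soleus and digastric were the highest for Ptprg. Between hindlimb and shoulder and forelimb muscles, 0 of the 7 passed in either direction, and 0 had an unadjusted p under 0.05 in limma, with a median difference of 0.09.

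Carriers of bicarbonate, protons, lactate and water, which work beside carbonic anhydrases, were measured for 23 of 26 listed genes. In hindlimb against shoulder and forelimb muscles 0 rose and 0 fell in the limma test, with 9 positive and 14 negative differences and a median of -0.07. An unadjusted p under 0.05 in limma was found for 1 of the 23 (4.35%), near the 3.65% of all genes. It was Aqp4, the water channel of fast fibres, at -0.85 (adjusted p = 0.9998). Aqp4 was at 5.40 in soleus and 5.67 in rectus femoris and between 6.28 and 7.52 elsewhere.

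The lactate carriers Slc16a3 and Slc16a1 had opposite extremes in soleus. Slc16a3, which exports lactate from glycolytic fibres, was at 6.34 in soleus and 6.98 in digastric, and between 7.92 and 8.96 in the 7 others. Slc16a1, the carrier of oxidative fibres, was at 7.91 in soleus and 7.74 in digastric, and lowest in rectus femoris at 5.74. Soleus and digastric were thus the lowest muscles for Slc16a3 and the highest for Slc16a1. Both were also high in Car8, low in Car11 and high in Car2, where trapezius lay between them. Slc16a7, another listed lactate carrier, was at 2.06 to 3.27, below the array medians, with 2.65 in soleus and 3.19 in digastric. Slc4a4, a sodium bicarbonate cotransporter, was at 7.40 in trapezius, 7.15 in masseter and 6.67 in tibialis anterior, and 5.51 to 6.23 in the others. Slc4a3, an anion exchanger of muscle, measured 4.04 in masseter and 3.98 in digastric and between 4.16 and 5.24 in the 7 others. As a whole the 23 genes had a mean between 5.13 and 5.34 on every array.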

How the data were processed

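Per the labels' protocols, total RNA of frozen muscle was hybridised as biotin-labelled cDNA to whole-transcript GeneChip arrays, 1 array for each of 9 muscles. The authors deposited log2 expression values per probe set. The submitters' processing notes name GCRMA, a background correction based on probe sequence with normalization across arrays, and no version of it. That the scale is log2 follows from the range of the values. Pooling of animals is not stated.

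Of 41345 probe sets, 23521 named 1 gene, 1814 several and 16010 none here. Entrez identifiers gave current symbols from the GRCm38.p6 table (23328 matched), and the probe set with the highest mean stood for a gene, which left 22180 genes. The members and lists were chosen with earlier results of these data known.

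All arrays entered 1 fit in limma 3.58.1 (R 4.3.3; lmFit, eBayes, 6 residual degrees of freedom), with Benjamini-Hochberg adjustment over all genes and a threshold of 0.05. Simulated data for hindlimb against shoulder and forelimb muscles held 22180 genes, 200 of them changed. There, 94.2% of genes changed by 2 on the log2 scale were recovered and 51.5% of those changed by 1. These rates are averages over genes of unlike spread and depend on the 200 changed genes, where 1 gene passed in the real data. They do not give the power for a single gene such as Car3, with an SE of 0.55. The number of arrays limits the precision. Named genes were the members, the lists, and for each member with a range of at least 1 the 5 genes (8 for Car3) of highest Pearson correlation, without predicted and similar symbols. Correlations are descriptions over arrays that share their normalization. Alternatives were a filter on dim genes, averaged probe sets, median centring, cyclic loess or quantile normalization, a robust fit with variance trend, the compared groups alone, trapezius with head muscles, a slow fibre covariate, a term for narrower arrays, the 6 arrays of wider range alone, and each array left out.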

Additional observations from a re-analysis of the deposited data

Results flagged for a closer look

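In the hindlimb group of 4 arrays, Car3 in rectus femoris stood apart from the 3 others. At 10.16 against 11.27 to 11.34, its gap to the nearest array was 0.934 of the whole range, above Dixon's 95% critical value for 4 values. The second probe set of Car3 gave 0.976, with rectus femoris at 7.06. Car8 in soleus, at 5.49 against 4.94 to 5.01, gave 0.867. Of 11 sets of values examined, 3 passed, where chance flags about 1 in 20 and the probe sets of Car3 share their RNA. Rectus femoris is an array of narrower spread, and its part in the low Car3 value was not tested.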

How the results depend on the processing

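Under each of 20 alternative settings 0 of the 9 genes passed in hindlimb against shoulder and forelimb muscles, with adjusted p in limma from 0.791 to 1, and 1 gene in all passed. The direction of that difference held for 7 of the 9 genes under these 20 settings. Among the 6 arrays of wider range it turned to 0.059 for Car4 and to -0.026 for Car12. Outside these settings, with no test, it turned to 0.045 for Car13 among the 3 narrower arrays and to -0.098 on the second probe set of Car9. Car12 has no value under the filter on dim genes. Car3 minus head, 3.62 for hindlimb and 2.80 for shoulder and forelimb, moved by more than the within-region SD only with trapezius counted among head muscles, to 2.32 and 0.95, and ran from 3.24 to 4.0 and from 2.25 to 3.59 with 1 array left out. All genes called for hindlimb against head, 2, numbered 4 with the slow fibre covariate and 1 with median centring, the variance trend and robust fit, only the groups compared, trapezius among head muscles, the value range as a term, or only the 6 arrays of wider range, and 0 (without masseter) to 19 (without soleus) with 1 array left out. For shoulder and forelimb against head, 0, they numbered 0 to 4 with 1 array left out, the 4 without digastric. The causes were not tested. No paired analysis was run, because the labels give no replicate numbers and the arrays could not be matched by animal. Genes near the array median, Car12 above all, have no measured order.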

Other observations

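The probe set shared by Car14 and Aph1a, a subunit of gamma-secretase, was at 9.15 in masseter, 7.68 in digastric, 7.63 in trapezius, 7.44 in supraspinatus and 7.78 in triceps. In the hindlimb it was at 7.48 in rectus femoris, 7.32 in tibialis anterior, 6.88 in soleus and 7.56 in gastrocnemius. Masseter was the highest and soleus the lowest. The signal of the 2 genes cannot be told apart on it. Another probe set names Aph1a alone. It was at 7.39 in masseter, 7.73 in digastric, 7.56 in trapezius, 7.37 in supraspinatus and 7.25 in triceps, and at 7.06 in rectus femoris, 7.28 in tibialis anterior, 7.83 in soleus and 7.09 in gastrocnemius. Soleus was the highest on that set and the lowest on the shared one.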
